A study of Mus musculus with 10 samples.

Results

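Mouse embryonic stem cells labelled as stably expressing Prdm14 were compared with embryonic stem cells that lack Dnmt3b, over all genes of a whole-genome expression array. The comparison rests on 4 of the 10 arrays of the study, chosen by their titles: 2 arrays of the line JP-23, labelled as stably expressing Prdm14 in a wild-type background (the PRDM14 group), and 2 arrays of the line 8bb, which is Dnmt3b-/- (the Dnmt3b_KO group). It asks how expression in the line labelled PRDM14 differs from that in a line without Dnmt3b, and it uses no array of the parental wild-type line J1. The cells of all groups were grown without feeder cells in serum medium with leukaemia inhibitory factor (LIF). The other 6 arrays hold wild-type J1 cells (2 arrays), the line JP-23+3b-3 labelled as stably expressing both Prdm14 and Dnmt3b1 (2 arrays, PRDM14_DNMT3B), the Dnmt1-/- line 36 (1 array, Dnmt1_KO) and the triple knockout line 19-1, which is Dnmt1-/-Dnmt3a-/-Dnmt3b-/- (1 array, TKO). Each group is a single line, so a difference between groups is also a difference between 2 lines. The labels do not say that the arrays of a group came from separate cultures, so the p-values may stand for technical spread alone. They and the standard errors (SE) reflect how far replicate arrays lie apart in PRDM14, in Dnmt3b_KO and also in PRDM14_DNMT3B, a line outside the comparison.

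PRDM14 is a zinc finger protein with a PR domain. It is found in naive embryonic stem cells and in primordial germ cells, where it is known to repress the de novo DNA methyltransferase genes and genes of FGF receptor signalling. DNMT3B is a de novo methyltransferase that, with DNMT3A, places methyl groups on CpG dinucleotides, and DNMT1 maintains them through replication. Genes of the germline, the 2-cell embryo and imprinted loci are known for their dependence on DNA methylation in embryonic stem cells, and the move from the naive to the primed epiblast state is accompanied by a rise in methylation.

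The level of a gene is given as the log2 of its array signal minus the 75th percentile of that array, so that 0 is the level of a spot at the 75th percentile and a difference of 1 is 2-fold. Between 50.03% and 56.03% of the spots of the 10 arrays were well above background, and no spot was saturated. Over 18248 genes, the replicates correlated at r = 0.9977 in PRDM14 and 0.9958 in Dnmt3b_KO, with a median absolute difference of 0.113 and 0.13. Dnmt3b_KO replicate 1 was on slide 1 and replicate 2 on slide 2, while the PRDM14 arrays lay alone on slides 3 and 4, so that slide and group cannot be told apart. Levels come from bulk RNA, in which fewer cells of a type and less RNA per cell cannot be told apart.

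The genes that give the 2 lines their names were examined first. Dnmt3b (probe at chr2:153513403-153513462, mm9) had levels of 5.0 and 5.05 on the PRDM14 arrays and 1.63 and 1.70 on the Dnmt3b_KO arrays. It was thus 10.3-fold lower in the knockout line, by a log2 difference of 3.36 (SE 0.08, limma adjusted p = 5.62e-05), and its 3 probes gave differences of 3.1, 3.15 and 3.36. The signal in the knockout line was still above background, and the sources used here do not say which part of the gene was deleted. Prdm14 went against the label of the overexpressing line. Its probe (chr1:13103555-13103614, mm9) stood at -4.31 and -4.02 in PRDM14 and at 1.19 and 1.15 in Dnmt3b_KO, a 40.4-fold lower signal in the line labelled PRDM14 (log2 difference -5.33, SE 0.12, limma adjusted p = 5.47e-05). J1 cells had -0.07 and 0.09 with the same probe, and the PRDM14_DNMT3B line had -6.34 and -6.42. No source used here says whether this probe detects the introduced Prdm14 transcript, and the array therefore does not check the label. Dnmt3b in turn stood at 4.10 and 4.17 in PRDM14_DNMT3B, the line labelled as also expressing Dnmt3b1, which is below PRDM14 and below J1, at 7.61 and 7.57, and whether its probe detects the introduced Dnmt3b1 is likewise not given. Group names follow the labels. Among the other methyltransferases, Dnmt1 had 1.5 and 1.32 against 1.67 and 1.43 (adjusted p = 0.443) and Dnmt3a had 0.09 and 0.15 against 0.24 and 0.26 (adjusted p = 0.298). Their groups did not overlap for Dnmt3a and overlapped for Dnmt1, and neither difference passed the test.

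Of 21997 genes tested, 9055 (41.2%) differed between the lines at an adjusted p under 0.05 (limma with Benjamini-Hochberg adjustment). In PRDM14, 5331 (24.2%) were higher and 3724 (16.9%) were lower, and these shares are the background for every count of a gene group. More than 2-fold differences in called genes were seen for 1744 genes higher (7.93%) and 1685 lower (7.66%), and more than 4-fold for 524 and 664. The median difference over all genes was 0.09, so small differences lie around that value and not around 0. Any PRDM14 array against any Dnmt3b_KO array showed 2005 to 2120 genes over 2-fold higher and 1798 to 1904 over 2-fold lower, whereas the replicates of PRDM14 were over 2-fold apart in 186 genes and those of Dnmt3b_KO in 539. For 16041 genes (72.9%), both arrays of a group lay to the same side of both arrays of the other, so a lack of overlap alone says little with 2 arrays a group. Without PRDM14 replicate 1 the count of changed genes was 5322, and without PRDM14 replicate 2 it was 5540. Without Dnmt3b_KO replicate 1, 3530 genes were higher. With probes above background on all 4 arrays, 1083 were over 2-fold higher, and with normexp background correction 699 were over 2-fold higher and 898 lower.

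**Figure D1:**
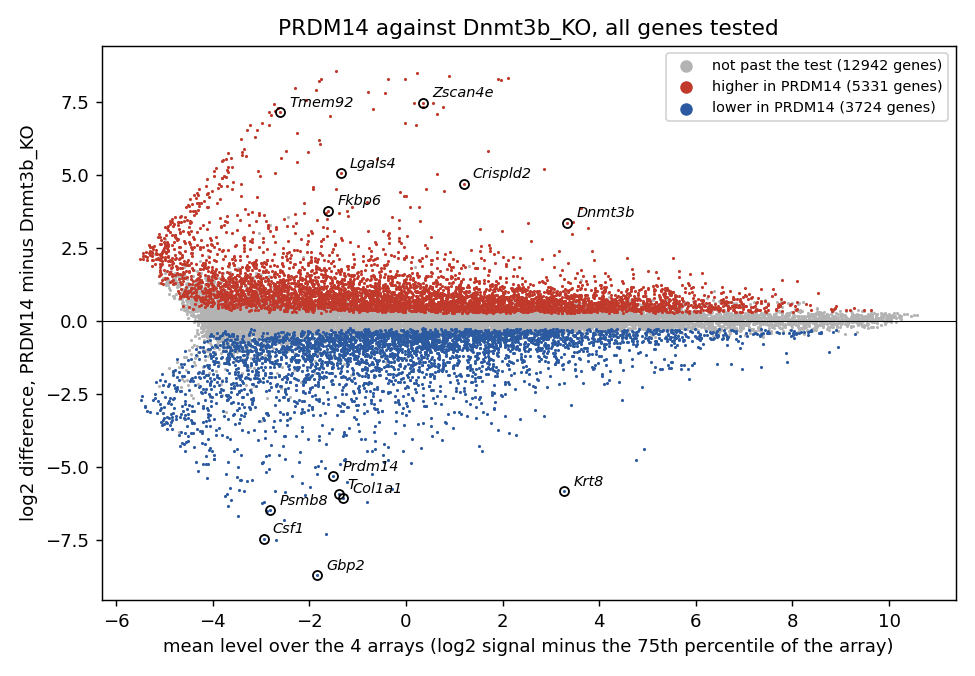
Log2 difference between PRDM14 and Dnmt3b_KO (vertical axis) against the mean level over the 4 arrays (horizontal axis, log2 relative to the 75th percentile), 1 point a gene. The 5331 genes higher and 3724 genes lower at an adjusted p under 0.05 are coloured, the 12942 others are grey, and the named genes include Zscan4e at the top and Gbp2 at the bottom.

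The largest set of differences in favour of PRDM14 lay in genes of the 2-cell embryo, which in culture are known to be switched on in a small fraction of embryonic stem cells. Of 24 tested members, 22 were higher, none was lower and 2 did not pass the test (Zfp352, and Sp110, whose probes together gave 2.638 with an adjusted p of 0.000134), with a median log2 difference of 4.90, or 3.20 when the 15 members whose brightest probe was not above background on any Dnmt3b_KO array are held at their lower bound. With normexp background correction the median was 1.62, and 22 of 24 were higher. All 24 were above background on both PRDM14 arrays, and 10 had a probe that was so on both Dnmt3b_KO arrays. Zscan4c, a member of a zinc finger family with a role in telomere maintenance, stood at 4.13 and 4.24 in PRDM14 and at -2.70 and -3.09 in Dnmt3b_KO, a log2 difference of 7.08 (SE 0.15, limma adjusted p = 4.94e-05). Its promoter, of GRCm38.p6 RefSeq, at chr7:11005495-11005794 on the plus strand, is shown because it is poor in CpG, with the CG dinucleotides in capitals. Of the 300 bases from 250 before to 50 after the start, it holds 4 CpG.
Zscan4c: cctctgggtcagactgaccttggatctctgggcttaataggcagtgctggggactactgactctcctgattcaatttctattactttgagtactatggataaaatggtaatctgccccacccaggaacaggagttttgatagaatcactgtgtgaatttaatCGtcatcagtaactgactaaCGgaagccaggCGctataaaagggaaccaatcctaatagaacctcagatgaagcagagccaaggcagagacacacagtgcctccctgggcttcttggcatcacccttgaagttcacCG

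The other Zscan4 copies gave the same picture, and since their sequences are nearly identical their probes may share signal. Zscan4e (chr7:11891736-11891795, mm9) had 4.13 and 4.06 in PRDM14 and -3.23 and -3.51 in Dnmt3b_KO, a 177-fold difference (SE of log2 0.12, adjusted p = 3.83e-05). Zscan4f was higher by 7.32 and Zscan4a by 7.31 on the log2 scale. AF067061, a transcript of the same stage, had the largest log2 difference of the 24 genes, at 6.22 and 6.31 against -2.29 and -1.82, which gives 8.32 (SE 0.18). Several partners of Zscan4 had no signal well above background in either Dnmt3b_KO array. Such a gene has only a bound: the mean of the bright group is set against the higher of the lowest signal well above background and the probe's own signal on each dim array, and written as at least N-fold. Tcstv3, of a family of 2-cell-specific transcripts, had 0.75 and 0.69 in PRDM14 and was at least 32.2-fold higher there (adjusted p = 6.58e-05). Tmem92, a transmembrane protein gene of the same stage (chr11:94638552-94638611, mm9), had 0.86 and 1.08 and was at least 38.2-fold higher (adjusted p = 7.51e-05). Both PRDM14 arrays were the high ones for all of these genes, and a lack of overlap was seen in 72.9% of all genes tested.

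Further copies followed. Tcstv1 was at least 13.8-fold higher, the deubiquitinase copies Usp17lb and Usp17lc at least 9.0-fold and 9.39-fold, the BTB-domain genes Tdpoz3 and Tdpoz4 at least 8.15-fold and 7.62-fold, and Pramel6 and Pramel7 at least 4.50-fold and 5.04-fold. Usp17la was at least 21.3-fold higher by its brightest probe (adjusted p = 6.58e-05), but the probe left when only probes above background on all 4 arrays are used gave a log2 difference of 0.088 (adjusted p = 0.603). Under that filter the 2-cell list kept 10 tested members, of which 7 were higher. The translation factor copy Eif1a had 5.61 and 5.64 against 5.04 and 5.01, a smaller difference of 0.60 (adjusted p = 0.0042). Zfp352, a zinc finger retrogene of this stage, was at 3.84 and 3.81 against 3.62 and 3.74 and did not pass the test (adjusted p = 0.234). The mean level of the list was 1.09 and 1.21 on the PRDM14 arrays, -3.74 and -3.93 in Dnmt3b_KO, -3.35 and -3.26 in J1, 0.46 and 0.54 in PRDM14_DNMT3B, -0.56 in Dnmt1_KO and -1.31 in TKO.

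Outside the 2-cell list, the genes most raised in PRDM14 included Lgals4 and its near copy Lgals6, which encode galectins that bind beta-galactosides. Lgals4 (chr7:29626661-29626720, mm9) had 1.25 and 1.12 in PRDM14 and -3.84 and -3.90 in Dnmt3b_KO, a log2 difference of 5.05 (SE 0.12, limma adjusted p = 5.6e-05), and Lgals6 was at least 27-fold higher. Crispld2, a secreted protein gene on chromosome 8, stood at 3.55 and 3.54 against -1.05 and -1.25 (log2 difference 4.69, SE 0.1). Tspan1, a tetraspanin membrane protein, stood at 2.65 and 2.72 against -1.75 and -1.92 (log2 difference 4.52, SE 0.1). These genes were named only where the arrays of the groups did not overlap, so their separation is part of the choice. Catsperz, which encodes a subunit of the sperm calcium channel, was at 2.23 and 2.24 against -1.66 and -1.69 (log2 difference 3.91). Olig3, a neural transcription factor gene, was at -0.09 and -0.11 against -4.14 and -4.12 (log2 difference 4.03), with 1 of the Dnmt3b_KO arrays above background. Lower bounds were given by Usp-ps (at least 63.2-fold), Pramel39 (46.9-fold), Zfp353 on chromosome 8 (28-fold), Spopfm2 (26.2-fold) and the mitochondrial carrier Slc25a34 (16.4-fold). Some of these may be relatives of members of the 2-cell list. Pramel39 shares a family name with Pramel6 and Pramel7, and the Usp-ps probe (chr7:111802099-111802158, mm9) lies near that of Usp17la (chr7:112011106-112011165, mm9). Whether such probes share signal was not tested. The line labelled PRDM14_DNMT3B lay between the 2 lines for Tspan1 and Catsperz, with -0.31 and -0.22 for Tspan1 and -0.19 and -0.41 for Catsperz. Catsperz stood at 1.34 in Dnmt1_KO and 2.05 in TKO.

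**Figure D2:**
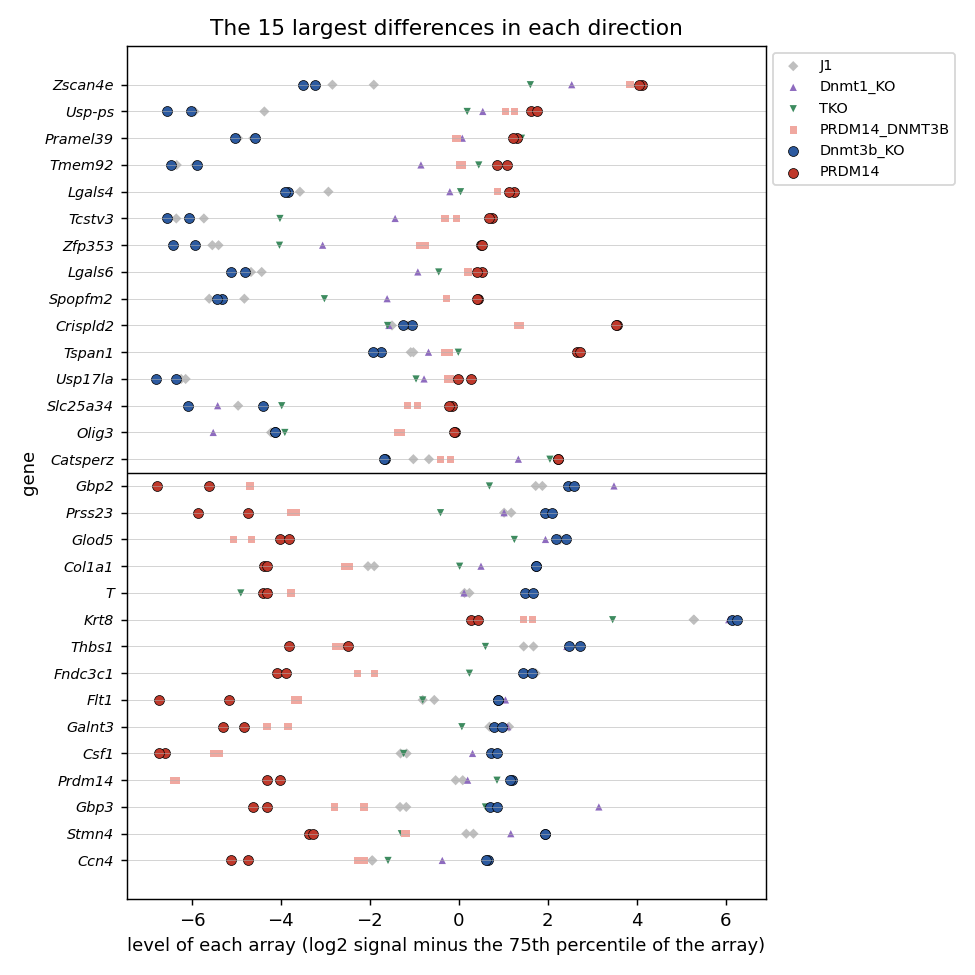
Levels of the 15 genes most raised and the 15 most lowered in PRDM14 on every array (log2 relative to the 75th percentile), with the PRDM14 arrays as red circles, the Dnmt3b_KO arrays as blue circles and the arrays of the other lines as further symbols. For Zscan4e the PRDM14 arrays lie at 4.13 and 4.06 and the Dnmt3b_KO arrays at -3.23 and -3.51, and for Col1a1 the order is the opposite.

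Genes of meiosis and of the germline that are known to be silenced by methylation were more often higher than lower in PRDM14. Of 40 tested members of 61 listed, 28 were higher, 2 were lower and 10 did not pass the test, with a median of 0.94, or 0.77 with bounds, against 0.09 over all genes. Fkbp6, a co-chaperone of the piRNA pathway and of the synaptonemal complex, had the largest measured difference. It stood at 0.28 and 0.27 in PRDM14 and at -3.28 and -3.69 in Dnmt3b_KO (log2 difference 3.76, SE 0.15, limma adjusted p = 0.000131). Its level was 1.55 in Dnmt1_KO and 1.96 in TKO, and -3.51 and -3.52 in PRDM14_DNMT3B. Hormad1, a protein of unsynapsed meiotic chromosome axes, had -0.53 and -0.37 in PRDM14 and -2.37 and -2.10 in Dnmt3b_KO (log2 difference 1.78, SE 0.13, adjusted p = 0.000599). Unlike Fkbp6, Hormad1 was also high in PRDM14_DNMT3B, at -0.70 and -0.64. Both promoters are shown, of GRCm38.p6 RefSeq, because they hold more CpG than the one of Zscan4c. Their CG dinucleotides are in capitals and number 21 for Fkbp6 (chr5:135349995-135350294, minus strand) and 24 for Hormad1 (chr3:95559427-95559726, plus strand). Neither is unusual, as the median over all tested genes with a promoter was 20.
Fkbp6: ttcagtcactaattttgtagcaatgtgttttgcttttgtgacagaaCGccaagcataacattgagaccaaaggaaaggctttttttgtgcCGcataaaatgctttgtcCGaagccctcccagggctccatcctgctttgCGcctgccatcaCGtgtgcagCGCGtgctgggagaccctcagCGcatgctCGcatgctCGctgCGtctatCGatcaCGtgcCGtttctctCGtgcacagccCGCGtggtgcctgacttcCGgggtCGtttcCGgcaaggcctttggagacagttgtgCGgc
Hormad1: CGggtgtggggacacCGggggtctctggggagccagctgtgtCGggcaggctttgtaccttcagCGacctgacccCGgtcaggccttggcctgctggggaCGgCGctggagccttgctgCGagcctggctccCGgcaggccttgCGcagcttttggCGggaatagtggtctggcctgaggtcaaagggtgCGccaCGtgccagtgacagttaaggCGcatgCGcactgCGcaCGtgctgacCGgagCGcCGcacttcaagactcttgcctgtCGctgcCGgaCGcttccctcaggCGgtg

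A promoter was found for 38 of the 40 tested germline genes, with a median of 18 CpG in 300 bases, against 20 over all genes tested. The E-box CACGTG, searched on both strands, was in 31.58% of them, in 10.11% of the promoters of all genes tested and in 7.24% of all promoters. TCCCGC, the core read by E2F6 and other E2F factors, was in 55.26%, 34.14% and 20.02%. These shares describe the list and not its difference between the lines. Stk31, a Tudor-domain kinase of spermatocytes, was at -0.52 and -0.40 against -2.61 and -2.81 (log2 difference 2.25). Tex14, a component of germ cell intercellular bridges, was at 1.04 and 1.15 against -1.10 and -1.11 (log2 difference 2.20), and Cyct, the testis cytochrome c, at 0.43 and 0.51 against -1.62 and -1.74 (log2 difference 2.15). All 3 had both PRDM14 arrays above both knockout arrays, and groups without overlap, in either direction, made up 72.9% of all genes. Syce1 and Smc1b, parts of the synaptonemal complex and of meiotic cohesin, were each higher by 1.97, and Tex19.1, a regulator of retrotransposons, by 1.72. Other meiotic genes did not pass the test: Sycp3 had a difference of -0.17 (adjusted p = 0.299), Dmc1 of -0.30 (0.305; -0.662 and 0.00358 with the mean of its probes), Mael of 0.05 (0.718) and Ddx4 of 0.28 (0.139). The 2 lower members were Tdrd5 (-0.51) and Gtsf1l (-0.44), and both calls were lost when any 1 of the 4 arrays was left out (adjusted p from 0.0537 to 0.18).

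The piRNA pathway, which silences transposons in germ cells, was mixed. Of 14 tested members of 20 listed, 5 were higher (35.7%), 2 were lower (14.3%) and 7 did not pass the test, with a median of 0.37. The shares over all genes were 24.2% and 16.9%. Piwil2, the PIWI protein of spermatogonia, was at -0.42 and -0.14 in PRDM14 and at -2.55 and -2.93 in Dnmt3b_KO (log2 difference 2.47, SE 0.17). The helicase Mov10l1 was higher by 1.94, with 1 Dnmt3b_KO array above background. Tdrd7, a Tudor protein of germ granules, went the other way, at -2.94 and -3.38 against -0.68 and -0.53 (log2 difference -2.55, SE 0.21, adjusted p = 0.000987). The groups were apart in each of these 3 genes, as in 72.9% of all genes, with Tdrd7 the gene that was high in the knockout line.

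Genes of the primordial germ cell programme included 9 higher, 3 lower and 3 that did not pass the test, of 15 tested, with a median of 1.19. Kit, the receptor for stem cell factor, was at 2.51 and 2.77 against 0.39 and 0.57 (log2 difference 2.16, SE 0.13, limma adjusted p = 0.000363). Nanos3, an RNA-binding protein that germ cells need to survive (chromosome 8), was at 4.22 and 4.17 against 2.01 and 1.85 (log2 difference 2.26). Tfap2c, a transcription factor of early germ cells, was higher by 1.34, and Ifitm3 by 1.45. Prdm1, the repressor that starts the programme, had 0.49 and 0.59 against 0.81 and 1.23 and did not pass (adjusted p = 0.096). The lower members, beside the Prdm14 probe, were Fgf8 (-2.65) and Ifitm1 (-1.53). Of the Rhox homeobox genes, an X-linked cluster expressed in germline and placenta, 8 of 10 tested were higher, none was lower and 2 did not pass (median 1.56). Rhox9 was at 5.25 and 5.08 against 1.82 and 1.72 (log2 difference 3.39, SE 0.1) and Rhox6 at 4.36 and 4.07 against 0.94 and 0.78 (log2 difference 3.36, SE 0.16). Rhox6 and Rhox9 are counted both in the primordial germ cell list and in the Rhox list. Rhox5, the founding member, was higher by 1.60. Rhox9 stood lower in PRDM14_DNMT3B, at 2.02 and 1.92, than in J1, at 3.06 and 3.07. Rhox4a and Rhox4e are near-identical copies and were at least 5.01-fold and 3.46-fold higher, and the call of Rhox4e was lost without PRDM14 replicate 1 (adjusted p = 0.055). With probes above background on all 4 arrays, 5 Rhox genes were higher.

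Of 10 core pluripotency genes, all above background in both lines, 5 were higher in PRDM14, none was lower and 5 did not pass (median 0.23), and the 5 became 3 when any 1 of the 4 arrays was left out. The median was 0.08 without genes of chromosome 8 and 0.06 with the mean of a gene's probes. Pou5f1 was at 5.94 and 5.94 in PRDM14 and 5.79 and 5.99 in Dnmt3b_KO (adjusted p = 0.743), and Sox2 at 3.72 and 3.74 against 3.63 and 3.8 (adjusted p = 0.938), so that the groups of both genes overlapped. Nanog was at 6.42 and 6.59 against 6.16 and 6.10 (log2 difference 0.37, adjusted p = 0.0318), but another of its probes differed in the opposite direction, the mean of its probes differed by -0.17 (adjusted p = 0.306), and the call was lost when any 1 of the 4 arrays was left out (adjusted p from 0.057 to 0.14). Dppa2, which with Dppa4 is known to promote 2-cell gene expression, was at 4.84 and 4.84 against 3.58 and 3.69 (log2 difference 1.21, SE 0.08, limma adjusted p = 0.000585). Dppa4 was higher by 0.68 and Zfp42, on chromosome 8, by 1.16. Sall4 was higher by 0.53, but its adjusted p lay between 0.0521 and 0.115 when any 1 of the 4 arrays was left out.

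Of 25 naive genes, 17 were higher, 1 was lower (the Prdm14 probe) and 7 did not pass the test, with a median of 0.66 against 0.09 over all genes. With the replicate number as a block, 3 were lower. Dppa3, which protects the maternal genome from demethylation, was at 3.01 and 3.19 in PRDM14 and at 0.81 and 1.04 in Dnmt3b_KO (log2 difference 2.18, SE 0.13, limma adjusted p = 0.000388). Fbxo15 was at 6.65 and 6.56 against 4.32 and 4.57 (log2 difference 2.16, SE 0.12), and Gbx2, a homeobox gene downstream of STAT3, at 2.71 and 2.68 against 1.3 and 1.12 (log2 difference 1.49, SE 0.1). All 3 genes were high on both PRDM14 arrays, and groups without overlap, in either direction, made up 72.9% of all genes. Smaller differences were seen for Tcl1 (1.19), Klf2 on chromosome 8 (0.80), Esrrb (0.66) and Stat3 (0.66), though Stat3 had an adjusted p of 0.0897, 0.05 and 0.0669 without PRDM14 replicate 1, PRDM14 replicate 2 and Dnmt3b_KO replicate 2. Klf4 (0.18, adjusted p = 0.225), Tfcp2l1 (-0.34, 0.179) and Tbx3 (-0.03, 0.871) did not pass. Among genes of the LIF pathway, 4 of 14 were higher (28.6%), 3 lower (21.4%) and 7 did not pass (median 0.11). These shares lie near the 24.2% and 16.9% over all genes. The feedback inhibitors Socs2 (1.08) and Socs3 (0.54) were higher and Socs1 (-0.91) was lower. The 3 lower became 1 without PRDM14 replicate 2, either Dnmt3b_KO array or either PRDM14_DNMT3B array.

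Genes of the primed epiblast lay on the other side. Of 24 tested, 18 were lower in PRDM14, 2 were higher (Dnmt3b and Etv5) and 4 did not pass the test, with a median of -1.50. T, the Brachyury transcription factor of the primitive streak (chr17:8635302-8635361, mm9), was at -4.40 and -4.32 in PRDM14, where it was not well above background, and at 1.48 and 1.68 in Dnmt3b_KO, so that it was at least 61.3-fold lower (adjusted p = 8.63e-05). Fgf5, the classical ligand of the primed epiblast, was at -2.47 and -2.13 against 2.10 and 2.25 (log2 difference -4.48, SE 0.15, limma adjusted p = 9.36e-05). Otx2, a transcription factor of the forebrain and epiblast, was at 2.63 and 2.70 against 4.28 and 4.39 (log2 difference -1.67, SE 0.1). In these genes both knockout arrays were high, with no overlap, which in either direction held for 72.9% of all genes. Pou3f1 differed by -3.06 on the log2 scale, Grhl2 by -3.02 and Sox3 by -1.34. Tead2 and Zic2 were among those that did not pass, and the call of Etv5 was lost without PRDM14 replicate 1 (adjusted p = 0.0532), PRDM14 replicate 2 (0.0689) or Dnmt3b_KO replicate 2 (0.0584). In J1 cells Fgf5 stood at 1.75 and 1.96 and T at 0.13 and 0.24, in TKO at 1.34 and -4.90.

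Nodal and activin signalling is known to hold the primed state. Of 19 tested genes of this pathway, 10 were lower, 3 were higher and 6 did not pass (median -0.56). The 3 higher became 1 when any 1 of the 4 arrays was left out, with quantile normalization, with the authors' deposited values and without a filter on dim probes. Inhba, the activin A subunit, was at -6.80 and -6.87 in PRDM14 and at -0.22 and -0.04 in Dnmt3b_KO, at least 21.9-fold lower (adjusted p = 3.83e-05). Lefty1, an antagonist that Nodal itself induces, was at -0.67 and -0.59 against 3.65 and 3.69 (log2 difference -4.30, SE 0.08), and Lefty2 at 0.06 and -0.02 against 3.47 and 3.56 (-3.49). Follistatin, Fst, which binds activin, was at -1.33 and -1.28 against 2.64 and 2.95 (-4.10, SE 0.16). The knockout arrays were the high ones for these 4 genes, without overlap, which in either direction held for 72.9% of all genes. The ligand Nodal differed by -0.64 (adjusted p = 0.00957), a call lost without PRDM14 replicate 1 (0.0536), PRDM14 replicate 2 (0.0637) or Dnmt3b_KO replicate 1 (0.051), while the effectors Smad2 (0.08, 0.666) and Smad3 (-0.14, 0.271) did not pass. Inhbb, the activin B subunit, was higher by 0.98. Of 22 tested Wnt pathway genes and targets, 9 were lower, 2 higher and 11 did not pass (median -0.30). Wnt3, the ligand of the primitive streak, was at -4.07 and -4.45 against -0.26 and -0.34 (-3.96, SE 0.16), and the targets Cdx1 (-2.13) and Sp5 (-1.77) were lower too, but Axin2 (adjusted p = 0.486) and Lef1 (0.334) did not pass.

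BMP genes were split. Of 19 tested, 7 were higher, 7 lower and 5 did not pass (median -0.20), and the 7 lower became 4 without PRDM14 replicate 1, while the 7 higher became 4 without PRDM14 replicate 2 or without Dnmt3b_KO replicate 2. Bmp4, the ligand that supports self-renewal with LIF, was at 5.55 and 5.56 against 3.73 and 3.86 (log2 difference 1.76, SE 0.09, limma adjusted p = 0.000227). Its targets Id3 (1.36), Id1 (1.00) and Smad6 (1.82) were higher as well. Bmp2 was at least 6.06-fold lower and Bmp8b differed by -1.69.

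FGF receptor signalling, a pathway PRDM14 is known to oppose, differed by member. The share higher in this list was 26.9%, near the 24.2% over all genes, and the share lower was 42.3%, against 16.9%. Of 26 genes, 11 were lower, 7 higher and 8 did not pass (median -0.29), and the 7 higher became 3 without either PRDM14 array and 4 without either Dnmt3b_KO array. Egr1, an early target of ERK, was at -0.99 and -1.09 in PRDM14 and 1.79 and 1.94 in Dnmt3b_KO (log2 difference -2.91, SE 0.1, limma adjusted p = 9.55e-05). Phlda1 was at 0.02 and -0.02 against 2.39 and 2.43 (-2.41), and the feedback inhibitor Spry1 at 0.85 and 1.08 against 2.31 and 2.50 (-1.44). The ETS factors went the other way: Etv4 was at 5.26 and 5.21 against 4.40 and 4.33 (0.86), and Etv1 and Etv5 were higher by 0.60 and 0.51. Of the receptors, Fgfr4 was higher (1.74), and Fgfr1 (0.20, adjusted p = 0.18), Fgfr2 (0.19, 0.235) and Fgfr3 (0.38, 0.104) did not pass; with the mean of their probes, Fgfr2 (0.524, 0.0355) and Fgfr3 (0.76, 0.0108) did. Immediate early and stress genes included 15 lower of 24, 4 higher and 5 that did not pass (median -0.67), and 2 of the 4 higher remain when genes of chromosome 8 are left out. Atf3 was at -3.97 and -3.72 against 0.20 and 0.31 (-4.10, SE 0.14), and Jun at 0.62 and 0.49 against 3.05 and 2.96 (-2.45, SE 0.1). Fosl2 was at -4.01 and -5.76 against -0.23 and -0.03 (-4.75, SE 0.56), and 1 of these PRDM14 values was above background.

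**Figure D3:**
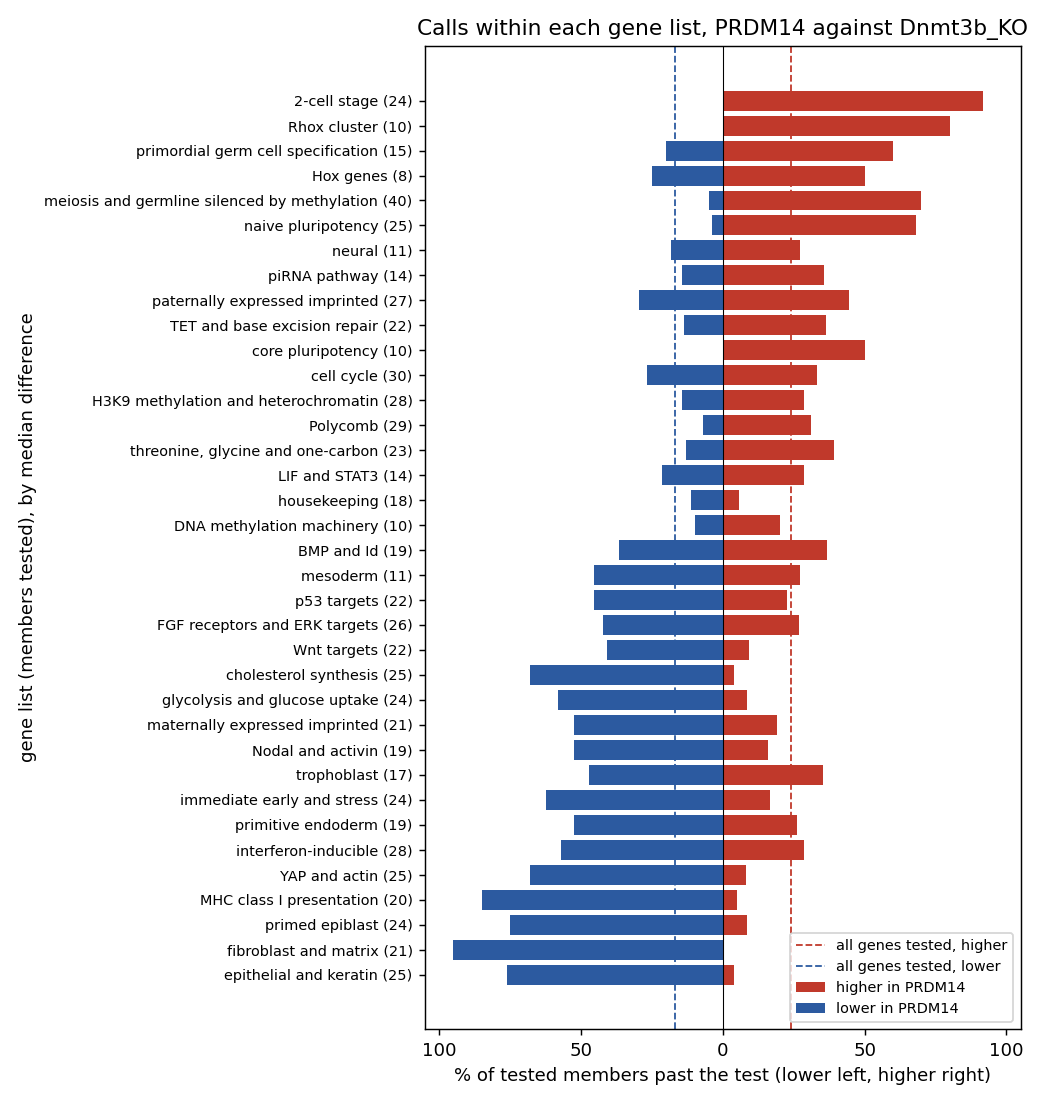
Share of the tested members of each gene list that were higher (right) or lower (left) in PRDM14 at an adjusted p under 0.05, with dashed lines at the shares over all genes, 24.2% higher and 16.9% lower. The 2-cell list reaches 22 of 24 to the right, and the fibroblast and matrix list 20 of 21 to the left.

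Many genes of epithelium, matrix and cytoskeleton were lower in PRDM14. Keratin and junction genes counted 19 lower of 25, 1 higher (Grhl3) and 5 that did not pass, with a median of -1.75. Krt8 (chr15:101827138-101827197, mm9), the keratin of simple epithelia, was at 0.28 and 0.44 in PRDM14 and at 6.14 and 6.25 in Dnmt3b_KO (log2 difference -5.84, SE 0.12, limma adjusted p = 4.5e-05). Its partner Krt18 was at 2.44 and 2.31 against 7.25 and 7.06 (-4.78, SE 0.13), and Krt19 at -0.66 and -0.63 against 3.89 and 3.72 (-4.45, SE 0.1). The 3 keratins were thus high on both knockout arrays, and J1 was nearer to them, with 5.28 and 5.29 for Krt8. A lack of overlap, in either direction, held for 72.9% of all genes. The tight junction claudins Cldn6 (-4.23), Cldn3 (-4.06) and Cldn7 (-3.84) and the desmosomal Dsp (-2.77) were lower. E-cadherin, Cdh1, on chromosome 8, differed by -0.95, and Epcam by -1.93.

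Fibroblast and matrix genes gave 20 lower of 21 tested, none higher and 1 that did not pass (Col6a2), with a median of -1.53. Their mean level was -1.61 and -1.62 on the PRDM14 arrays, 0.68 and 0.64 in Dnmt3b_KO, -0.50 and -0.34 in J1 and -1.25 and -1.42 in PRDM14_DNMT3B, and of the 25 listed markers 17 were above background on both PRDM14 arrays and 21 on both Dnmt3b_KO arrays. Col1a1, the main chain of type I collagen (chr11:94813115-94813174, mm9), was at -4.37 and -4.30 in PRDM14 and at 1.74 and 1.73 in Dnmt3b_KO (log2 difference -6.07, SE 0.09, limma adjusted p = 3.83e-05), and Col1a2 was at -3.02 and -3.06 against 1.43 and 1.42 (-4.46, SE 0.35). S100a4 was at -2.39 and -2.27 against 2.54 and 2.54 (-4.87). Decorin, Dcn, was at least 6.89-fold lower and Col3a1 at least 3.31-fold, while Lum, Fap, Postn and Col5a2 entered no test because they were not above background on both arrays of either group. The widely expressed members differed less, with Fn1 at -1.52 and Vim at -0.71. The share of other cells in the cultures was not tested.

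Targets of YAP and of actin remodelling were 17 lower of 25, 2 higher and 6 that did not pass (median -1.02). Tagln, a smooth muscle actin-binding protein, was at 2.68 and 2.79 against 7.22 and 7.04 (log2 difference -4.40, SE 0.11, limma adjusted p = 5.6e-05). Anxa3, an annexin, was at -1.90 and -1.85 against 2.46 and 2.52 (-4.36, SE 0.08). Thbs1, thrombospondin 1, was at -3.81 and -2.50 against 2.47 and 2.72 (-5.75, SE 0.43). The receptor tyrosine kinase Axl was at least 16.5-fold lower. Yap1 itself (-0.04, adjusted p = 0.784), Tead1 (0.985) and Ctgf (-0.18, 0.155) did not pass, while the mean of its probes gave Tead1 0.326 (0.0316). Ankrd1, a widely used YAP target, was at -6.78 and -6.84 against -2.45 and -2.22 and at least 4.74-fold lower (adjusted p = 5.6e-05). Its promoter (GRCm38.p6 RefSeq, chr19:36119795-36120094, minus strand) is shown because it holds GGAATG, the motif of the TEAD partners of YAP, at 2 places, in capitals, the first at -210 from the start. This motif was in 72.22% of the promoters of the list, whatever the direction of the gene. It was in 12.16% of those of all genes tested and in 14.63% of all promoters. Its part in the difference was not tested.
Ankrd1: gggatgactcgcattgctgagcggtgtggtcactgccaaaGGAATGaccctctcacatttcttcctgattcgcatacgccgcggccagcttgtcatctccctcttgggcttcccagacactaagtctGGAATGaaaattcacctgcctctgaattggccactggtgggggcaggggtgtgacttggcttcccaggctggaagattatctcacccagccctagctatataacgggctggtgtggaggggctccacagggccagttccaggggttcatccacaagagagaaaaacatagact

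Markers of extraembryonic and germ layer cells had no single direction. Over all genes, 24.2% were higher and 16.9% lower. The neural list lay near these shares, with 27.3% and 18.2%, and the mesoderm list did so for its higher members, with 27.3%. Trophoblast markers were 8 lower, 6 higher and 3 not passing, of 17 tested (median -0.66). The lower ones were led by the keratins, and Cdx2 differed by -1.31 and Eomes by -2.58, while Gata2, at 0.65 and 0.67 against -3.48 and -2.68, was higher by 3.74 (SE 0.27). Their mean level was -0.56 and -0.59 in PRDM14 and 0.37 and 0.41 in Dnmt3b_KO, and 16 and 17 of 21 on the array were above background. Primitive endoderm markers were 10 lower, 5 higher and 4 not passing, of 19 tested (median -0.91), with a mean level of -1.15 and -1.04 against -0.16 and -0.09. The basement membrane collagens Col4a2 (-3.02) and Col4a1 (-2.26), on chromosome 8, and Cited1 (-3.12) were lower. Sox7 (2.00, with 1 Dnmt3b_KO array above background) was higher, and Gata6, Sox17 and Pdgfra, defining markers of this lineage, were not above background on both arrays of either group. The 5 higher became 1 to 3 when any 1 of the 4 arrays was left out. Mesoderm markers were 5 lower, 3 higher and 3 not passing, of 11 tested (median -0.21), and Hand1 was higher (2.16). Neural markers were 2 lower, 3 higher and 6 not passing, of 11 tested (median 0.40): Nes differed by -2.69, while Tubb3 on chromosome 8 (1.74) and Pax6 (1.25) were higher, and without Dnmt3b_KO replicate 1 the lower ones numbered 4. The part of such cells in the results was not tested.

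Interferon-inducible genes and genes of antigen presentation were among the most lowered in PRDM14. Gbp2, a guanylate-binding protein of innate immunity (chr3:142300719-142300778, mm9), was at -5.61 and -6.79 in PRDM14, not well above background, and at 2.45 and 2.59 in Dnmt3b_KO, at least 137-fold lower (limma adjusted p = 0.000161). Gbp3 (chr3:142236032-142236091, mm9) was at -4.63 and -4.32 against 0.70 and 0.87 (log2 difference -5.26, SE 0.25, adjusted p = 0.000191), but only 1 PRDM14 array was above background, so that the size of the difference is uncertain. B2m, the light chain of MHC class I, was at 0.19 and 0.28 against 2.52 and 2.72 (-2.38, SE 0.1, adjusted p = 0.000161). Groups without overlap, in either direction, made up 72.9% of all genes. Gbp2, Gbp3 and B2m were high on both knockout arrays. Their promoters, of GRCm38.p6 RefSeq, are shown because each holds the interferon-stimulated response element, taken as GAAA, any 2 bases and GAAA again and searched on both strands, in capitals: once in Gbp2 at -59 from the start (chr3:142620413-142620712, plus strand), at 2 overlapping places in Gbp3, the first at -45 (chr3:142559794-142560093, plus strand), and once in B2m at -139 (chr2:122147437-122147736, plus strand).
Gbp2: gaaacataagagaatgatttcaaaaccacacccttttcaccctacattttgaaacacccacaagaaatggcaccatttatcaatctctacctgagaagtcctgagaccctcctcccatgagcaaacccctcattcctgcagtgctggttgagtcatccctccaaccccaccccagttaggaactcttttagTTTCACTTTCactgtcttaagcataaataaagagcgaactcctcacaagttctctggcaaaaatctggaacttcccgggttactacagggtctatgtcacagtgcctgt
Gbp3: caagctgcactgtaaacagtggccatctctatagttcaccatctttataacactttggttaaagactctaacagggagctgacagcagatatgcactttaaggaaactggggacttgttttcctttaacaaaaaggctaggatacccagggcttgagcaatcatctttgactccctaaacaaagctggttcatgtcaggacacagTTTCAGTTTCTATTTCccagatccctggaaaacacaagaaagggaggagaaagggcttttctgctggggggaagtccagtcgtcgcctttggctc
B2m: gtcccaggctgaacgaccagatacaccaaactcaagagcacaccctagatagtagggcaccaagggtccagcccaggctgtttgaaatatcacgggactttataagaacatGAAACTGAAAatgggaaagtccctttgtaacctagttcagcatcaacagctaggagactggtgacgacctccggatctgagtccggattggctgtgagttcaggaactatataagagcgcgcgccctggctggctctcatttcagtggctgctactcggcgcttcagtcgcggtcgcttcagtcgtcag

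Over the interferon list, 16 of 28 tested members were lower, 8 were higher and 4 did not pass, with a median of -0.99, or -0.92 with bounds. The share higher was 28.6%, near the 24.2% over all genes, and the share lower was 57.1%, against 16.9%. The response element was found in 14 of the 24 promoters available (58.33%), in 2.81% of those of all genes tested and in 3.49% of all promoters, whatever the direction of the gene. It was also in the promoters of Ifitm3 and Rsad2, which were higher in PRDM14. The promoters of Psmb8 and Isg20, which were lower, did not hold it. Its part in the difference between the lines was not tested. Psmb8, the immunoproteasome subunit, was at -6.72 and -5.39 against 0.52 and 0.38, at least 32.6-fold lower (adjusted p = 0.000991). Isg20, an antiviral exonuclease, was at -3.26 and -3.53 against -0.04 and -0.29 (-3.23, SE 0.15), and Isg15, the ubiquitin-like modifier, at -1.44 and -1.67 against 1.52 and 1.39 (-3.00, SE 0.24). Irf1, a transcription factor of the pathway, differed by -1.22. Other members were higher in PRDM14, among them Ifitm3 (1.45), Oas2 (0.91), Rsad2 (2.81, with 1 Dnmt3b_KO array above background) and Gbp6 (1.53). Without PRDM14 replicate 2 the adjusted p was 0.0566 for Rsad2 and 0.0542 for Gbp6, and without PRDM14 replicate 1 it was 0.0957 for Gbp6. Stat2 had a difference of 0.02 (adjusted p = 0.896), and Irf7, Ifit1 and Mx1 were not above background on both arrays of either group. With probes above background on all 4 arrays the lower members numbered 10, and the 8 higher became 4 without either PRDM14 array and 5 without either Dnmt3b_KO array.

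Of 20 tested genes of MHC class I presentation, 17 were lower, 1 was higher (the chaperone Calr, on chromosome 8) and 2 did not pass, with a median of -1.30. The heavy chain gene H2-K1 was at 0.18 and 0.25 in PRDM14 and at 2.81 and 2.87 in Dnmt3b_KO (log2 difference -2.62, SE 0.08, limma adjusted p = 8.8e-05), and H2-D1 was at -0.69 and -0.84 against 0.96 and 0.98 (-1.74, SE 0.09). The H2 genes are close copies of each other, so their probes may share signal. The peptide transporter subunit Tap2 was at -2.74 and -2.81 against 0.74 and 0.83 (-3.56, SE 0.13), and Tap1 was at least 5.29-fold lower. The general endoplasmic reticulum chaperones Canx (-0.02, adjusted p = 0.907) and Pdia3 (0.07, 0.611) did not pass. The mean level of the list was -0.01 and 0.03 in PRDM14, 1.62 and 1.67 in Dnmt3b_KO, 1.3 and 1.26 in J1, 0.49 and 0.43 in PRDM14_DNMT3B, 2.78 in Dnmt1_KO and 1.96 in TKO.

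**Figure D4:**
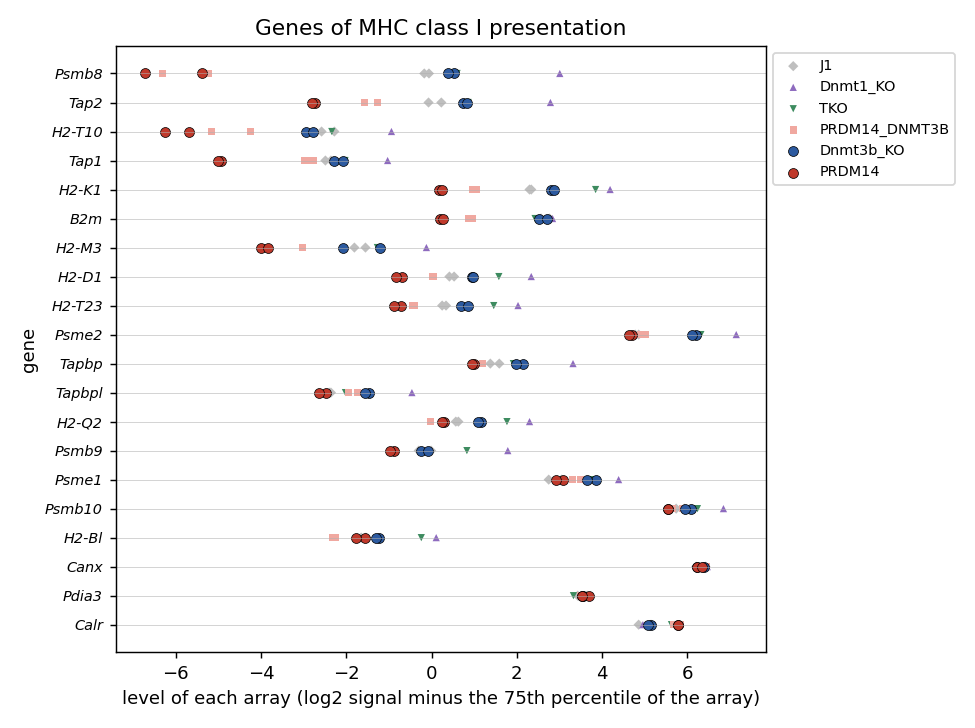
Levels of the 20 tested genes of MHC class I presentation on every array (log2 relative to the 75th percentile), 1 row a gene, with the PRDM14 and Dnmt3b_KO arrays in separate colours. Both PRDM14 arrays lie below both Dnmt3b_KO arrays for the 17 genes called lower, for H2-K1 at 0.18 and 0.25 against 2.81 and 2.87. A lack of overlap, in either direction, was seen in 72.9% of all genes tested.

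Among the other genes most lowered were signalling and secreted proteins. Csf1, the macrophage growth factor (chr3:107544333-107544392, mm9), was at -6.61 and -6.73 in PRDM14 and at 0.73 and 0.86 in Dnmt3b_KO, at least 41.5-fold lower (limma adjusted p = 3.83e-05). Prss23, a serine protease, was at -4.73 and -5.87 against 1.93 and 2.10, at least 96.6-fold lower (adjusted p = 0.000233). Flt1, a receptor of vascular endothelial growth factor, was at -6.73 and -5.16 against 0.89 and 0.89, at least 44.3-fold lower (adjusted p = 0.000677). Wide separation is part of how these genes were chosen, as the largest differences among genes whose arrays did not overlap. Csf1, Prss23 and Flt1 were not well above background on either PRDM14 array. The distance between replicates was widest for Flt1. Glod5, on the X chromosome, was at -4.01 and -3.82 against 2.42 and 2.19 (-6.22, SE 0.18), Stmn4, a stathmin of neurons, at -3.36 and -3.28 against 1.93 and 1.93 (-5.25, SE 0.08), and Fndc3c1, also X-linked, at -4.09 and -3.89 against 1.45 and 1.65 (-5.54, SE 0.16). The glycosyltransferase Galnt3 was at least 44.3-fold lower, and the matricellular Wnt target Ccn4 at least 37.2-fold.

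Imprinted genes differed in both directions. Of maternally expressed genes 19% were higher and 52.4% lower, and of paternally expressed ones 44.4% and 29.6%. Over all genes the shares were 24.2% and 16.9%. Of 21 tested maternally expressed genes, 11 were lower, 4 higher and 6 did not pass (median -0.49), and of 27 paternally expressed genes, 12 were higher, 8 lower and 7 did not pass (median 0.33). The 12 became 6 without PRDM14 replicate 2 and 7 without Dnmt3b_KO replicate 1. H19, a maternally expressed non-coding RNA, was at 1.25 and 1.08 in PRDM14 and at -1.78 and -1.93 in Dnmt3b_KO (log2 difference 3.02, SE 0.11, limma adjusted p = 0.000108), and it was highest in Dnmt1_KO, at 6.87, and TKO, at 5.53. Calcr, the calcitonin receptor, was at -4.19 and -3.91 against -0.04 and 0.05 (-4.05, SE 0.21), and Grb10, an adaptor that limits growth, at -1.55 and -1.65 against 0.92 and 0.77 (-2.44, SE 0.11). In the Dlk1 domain, Meg3 (-1.81), Mirg (-2.15) and Dlk1 (-1.48) were lower and Dio3 was higher (1.72). Peg10, a retrotransposon-derived gene, was at -2.92 and -2.76 against 0.12 and -0.05 (-2.87, SE 0.11), and its neighbour Sgce at -3.50 and -3.98 against -0.63 and -0.56 (-3.15, SE 0.17). Both genes were high in the knockout line, with no overlap, which in either direction held for 72.9% of all genes. Magel2 was lower (-2.13), and Kcnq1ot1 (0.99) was higher, while Igf2 (-0.16, adjusted p = 0.67) and Peg3 (0.22, 0.168) did not pass.

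Genes of the methylation machinery other than Dnmt3b differed little. Of 10, 2 were higher (Dnmt3b and Zfp57), 1 was lower (Uhrf2) and 7 did not pass (median -0.09). The shares were 20% higher and 10% lower, against 24.2% and 16.9% over all genes. Zfp57, which guards imprints, was at 0.90 and 0.64 against 0.24 and 0.14 (0.58, adjusted p = 0.0232), but another of its probes differed in the opposite direction and the call was lost without PRDM14 replicate 1 (adjusted p = 0.112), Dnmt3b_KO replicate 1 (0.0694) or Dnmt3b_KO replicate 2 (0.097). Uhrf2 was at 1.89 and 1.91 against 2.28 and 2.35 (-0.42, adjusted p = 0.0125), and its adjusted p lay between 0.0513 and 0.0738 when any 1 of the 4 arrays was left out. Uhrf1 (-0.28, adjusted p = 0.0525) and Dnmt3l (-0.21, 0.124), the cofactors of maintenance and de novo methylation, did not pass, although quantile normalization gave Uhrf1 -0.40 (adjusted p = 0.0183) and Dnmt3l -0.345 (0.0371). Among 22 tested genes of demethylation and base excision repair, 8 were higher, 3 lower and 11 did not pass (median 0.27), and the 8 became 2, 3, 2 and 5 without PRDM14 replicate 1, PRDM14 replicate 2, Dnmt3b_KO replicate 1 and Dnmt3b_KO replicate 2, and 4 without either PRDM14_DNMT3B array. In this list 36.4% were higher, against 24.2% over all genes, and 13.6% were lower, near the 16.9% over all genes. Tet1, the main dioxygenase of 5-methylcytosine in these cells, was at 5.78 and 5.81 in PRDM14 and 4.95 and 5.01 in Dnmt3b_KO (log2 difference 0.81, SE 0.08, limma adjusted p = 0.00156). Tet2 was at 2.47 and 2.72 against 2.20 and 2.38 (0.30, adjusted p = 0.131) and Tet3 at -1.27 and -1.30 against -0.89 and -1.17 (-0.26, 0.381), and neither passed, although the mean of its probes gave Tet2 0.455 (0.0157). The glycosylase Nthl1 was higher by 1.06, and Gadd45g was lower (-0.93).

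Of 29 tested Polycomb genes, 9 were higher, 2 lower and 18 did not pass (median 0.14), and the 9 became 5 without PRDM14 replicate 1, PRDM14 replicate 2 or Dnmt3b_KO replicate 1. The share higher in this list was 31%, near the 24.2% over all genes, and the share lower was 6.9%, against 16.9%. Phf19, an accessory subunit of the methylating complex, was at 0.51 and 0.52 against -0.64 and -0.74 (1.21, SE 0.08). E2f6, a repressor of germline genes, was at 2.21 and 2.47 against 3.20 and 3.35 (-0.93, SE 0.14, limma adjusted p = 0.00571). The catalytic Ezh2 (0.08, adjusted p = 0.62) and Suz12 (-0.18, 0.362) did not pass. Of 28 genes of H3K9 methylation and heterochromatin, 8 were higher, 4 lower and 16 did not pass (median 0.17), and the 8 became 4, 2 and 5 without PRDM14 replicate 1, PRDM14 replicate 2 and Dnmt3b_KO replicate 1. With 28.6% higher and 14.3% lower, the H3K9 list lay near the 24.2% and 16.9% over all genes. Zbtb33, a reader of methylated CpG also named Kaiso, was at -1.34 and -1.21 against 0.00 and 0.24 (-1.39, SE 0.13), and the demethylase Kdm3a was higher by 0.84. The methyltransferase Setdb1 (-0.18, adjusted p = 0.34) and its corepressor Trim28 (0.12, 0.309) did not pass.

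Of 24 glycolytic genes, 14 were lower, 2 higher and 8 did not pass (median -0.47), and the 14 became 9 without PRDM14 replicate 1. Pfkfb3, which makes the activator of phosphofructokinase, was at 0.31 and 0.60 against 2.33 and 2.48 (log2 difference -1.95, SE 0.13, limma adjusted p = 0.000511), and Slc16a3, the lactate exporter, at 4.19 and 4.29 against 6.11 and 5.93 (-1.77, SE 0.11). Tpi1 (-1.44), Pfkl (-1.26) and Pgk1 (-0.79) were lower, Pfkp was higher (1.03), and Gapdh (-0.14, adjusted p = 0.429) did not pass. Of 25 genes of cholesterol synthesis and uptake, 17 were lower, 1 higher and 7 did not pass (median -0.46), and the 17 became 9 without either PRDM14 array or without Dnmt3b_KO replicate 2. Hmgcs1, an early enzyme of the pathway, was at 5.2 and 5.19 against 6.04 and 5.99 (-0.82, SE 0.08). One-carbon genes were 9 higher, 3 lower and 11 not passing, of 23 tested (median 0.13), and the 9 became 5 without either PRDM14 array. Tdh, the threonine dehydrogenase that feeds this pathway in mouse embryonic stem cells, was at 8.99 and 9.01 against 8.14 and 8.00 (0.94, SE 0.12).

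Cell cycle genes were 10 higher, 8 lower and 12 not passing, of 30 tested (median 0.18), and the 10 became 6 without PRDM14 replicate 1. The shares of the cell cycle list were 33.3% higher and 26.7% lower, against 24.2% and 16.9% over all genes. Ccnd3, a D-type cyclin, was at 6.87 and 6.79 against 5.48 and 5.62 (1.28, SE 0.09, limma adjusted p = 0.00066), whereas Ccnd1 was lower (-0.73). The inhibitor Cdkn2b was at -1.97 and -1.84 against -0.33 and 0.18 (-1.83, SE 0.2). Targets of p53 were 10 lower, 5 higher and 7 not passing, of 22 (median -0.26), and the 5 became 3, 2, 3 and 3 when PRDM14 replicate 1, PRDM14 replicate 2, Dnmt3b_KO replicate 1 and Dnmt3b_KO replicate 2 were left out. The share higher in the p53 list was 22.7%, near the 24.2% over all genes, and the share lower was 45.5%, against 16.9%. Plk2 was at -0.33 and -0.17 against 1.24 and 1.34 (-1.54, SE 0.1) and Ccng1 at 2.51 and 2.54 against 3.57 and 3.70 (-1.11, SE 0.09), while Trp53 itself was higher by 0.59 and Mdm2 (-0.24, adjusted p = 0.269) did not pass. Of 30 Hox genes 8 entered the test, 5 of them above background in 1 group alone: 4 were higher, 2 lower and 2 did not pass (median 0.96, or 0.17 with bounds). With probes above background on all 4 arrays 3 were tested, of which 2 were higher and none lower, and without Dnmt3b_KO replicate 1 the lower ones numbered 4. Hoxa7 was higher by 1.16, and Hoxc6 was at least 3.70-fold lower. Of 18 housekeeping genes, 15 did not pass the test (median -0.05), and the exceptions were B2m, Pgk1 and Tbp, the last with a difference of 0.27 (adjusted p = 0.0438) whose adjusted p was 0.114 to 0.182 when any 1 of the 4 arrays was left out.

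The differences were not spread evenly over the chromosomes. On chromosome 8, 643 of 1214 tested genes (53%) were higher in PRDM14 and 98 (8.07%) were lower, against 24.2% and 16.9% over all genes. The median difference there was 0.497, which is 0.414 above that of the other autosomes. By array, relative to the mean of the knockout arrays, this excess was 0.41 and 0.424 on the PRDM14 arrays and 0.337 and 0.365 on the PRDM14_DNMT3B arrays. No other autosome was further from the rest than chromosome 6, with an excess of 0.0657. The number of copies of chromosome 8 in these lines was not measured. Without genes of chromosome 8, the comparison called 4649 genes higher and 3608 lower. On the X chromosome, 149 of 863 tested genes (17.3%) were higher and 233 (27%) lower, with a median difference of -0.155 relative to the autosomes. Of 29 tested genes of the Y chromosome, 9 (31%) were higher and 4 (13.8%) lower, with a median of 0.636. Ddx3y, a Y-linked RNA helicase gene chosen after its values were seen, was at -2.56 and -2.82 in PRDM14, -6.09 and -6.31 in PRDM14_DNMT3B, 1.39 and 1.47 in Dnmt3b_KO and 1.63 and 1.63 in J1 (-4.12, SE 0.13, limma adjusted p = 8.8e-05). Eif2s3y, a translation factor chosen in the same way, was at 0.30 and 0.53 in PRDM14, -4.41 and -5.11 in PRDM14_DNMT3B and 3.56 and 3.8 in Dnmt3b_KO. Both genes were lower on the arrays labelled PRDM14 and PRDM14_DNMT3B than on the Dnmt3b_KO arrays.

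**Figure D5:**
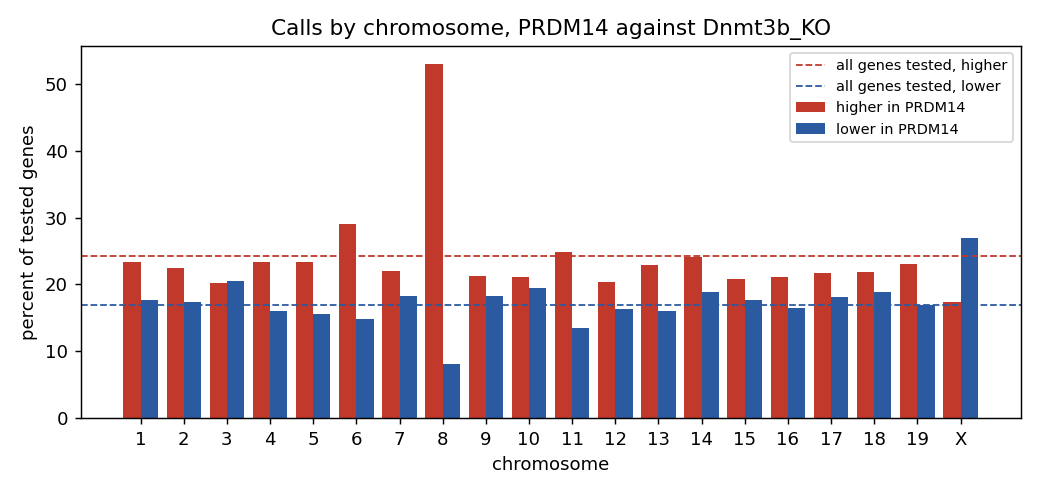
Share of tested genes higher and lower in PRDM14 at an adjusted p under 0.05 on each autosome and the X chromosome. Chromosome 8 stands out with 53% higher and 8.07% lower, and the X chromosome with 27% lower.

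The levels of these genes in the other lines are given as a description. The PRDM14_DNMT3B, Dnmt1_KO and TKO arrays were in the fit. Of the 1744 genes over 2-fold higher in PRDM14, 71.2% and 70.1% were nearer to the PRDM14 mean than to the Dnmt3b_KO mean on the PRDM14_DNMT3B arrays, 21.7% and 21.7% on the J1 arrays, 30.4% in Dnmt1_KO and 36.5% in TKO. Of the 1685 over 2-fold lower, the shares were 72.7% and 73.2% in PRDM14_DNMT3B, 20.2% and 20.2% in J1, 8.01% in Dnmt1_KO and 23.1% in TKO. J1 cells thus lay nearer to the knockout line for most of these genes, and cells labelled PRDM14_DNMT3B nearer to PRDM14. Single genes departed from this. Fkbp6, Tspan1 and Catsperz were nearer to the knockout level than to the PRDM14 level on both PRDM14_DNMT3B arrays, and Col1a1, at 1.74 and 1.73 in Dnmt3b_KO, was at -2.04 and -1.90 in J1.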

How the data were processed

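Each array was a one-colour Agilent design hybridised with Cy3-labelled RNA, read with Feature Extraction 10.7.3.1 per the submitters' processing notes. The deposited scanner files hold intensity values: per the file headers, the processed signal is background-subtracted, and it was used without control and outlier spots, with the spots of a probe averaged. The deposited value matrix holds log2 values, whose scaling stays unknown beyond a median of 4.243 on each array and a correlation of 0.9993 to 0.9998 with the log2 signal, and served as an alternative. Each array's 75th percentile was subtracted from the log2 signal. A gene entered with its brightest probe if that probe was well above background on both arrays of PRDM14 or of Dnmt3b_KO. limma 3.58.1 (R 4.3.3) was fitted on 8 arrays without J1, with 3 residual degrees of freedom and Benjamini-Hochberg adjustment at 0.05, and tested on simulated data. Of 22232 RefSeq accessions in the array annotation, 20869 matched the RefSeq gene table, and 2269 symbols were updated.

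The named genes are Dnmt3b and Prdm14, the 15 largest called differences each way, and up to 4 called members of each of 36 lists (802 symbols). Further members are named where a sentence on a list needs them. The 15 each way were taken only from genes whose arrays did not overlap between the groups. Near-identical copies were taken once, and model and clone names were passed over. A few genes that the rule names are not reported here. The members and lists were chosen with earlier results of these data known. Some genes are in several lists, among them Rhox6, Rhox9, Fkbp6, T, Krt8, Krt18 and Psmb8. Counts of lists that share members are therefore not independent of each other. Probe positions are those of mm9 in the scanner files, and promoters are RefSeq's of GRCm38.p6, 300 bases each, matched by symbol for 11419 of the 21997 genes. A check over the promoters of all genes is void at that coverage. The alternatives were quantile normalization, the median of detected probes, normexp background correction (offset 50), the value matrix deposited by the authors, 2 other filters, the mean of a gene's probes, 10 or 4 arrays in the fit, the replicate number or the slide as a block, each array left out, and, added after seeing the data, leaving out chromosome 8.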

Additional observations from a re-analysis of the deposited data

How the results depend on the processing

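Of 21997 genes tested, 9055 were changed, and leaving out single arrays gave 5322 to 8727 changed genes, 2899 to 5136 higher and 2423 to 3591 lower, with 1551 to 1829 higher and 1585 to 1916 lower over 2-fold. Normexp background correction left the number of changed genes at 9089 but gave 699 higher and 898 lower over 2-fold, and probes above background on all 4 arrays gave 1083 higher over 2-fold. Normexp also brought medians of lists nearer to 0: 2-cell from 4.90 to 1.62, germline from 0.94 to 0.55, Rhox from 1.56 to 0.84, matrix from -1.53 to -0.90, MHC from -1.30 to -0.76, interferon from -0.99 to -0.55, primitive endoderm from -0.91 to -0.43, immediate early from -0.67 to -0.26 and Hox from 0.96 to 0.38. Quantile normalization called 8995 genes (53.8% of them higher, against 58.9%) and the values deposited by the authors gave 8957 (54%); the other settings gave 6812 of 36270 genes without a filter, 8720 with only the 4 arrays compared, 9027 with all 10 arrays and 8491 with the slide as a random block (correlation 0.65). Results that reversed were the median of the Hox list without a filter on dim probes (-0.29) and, with the mean of a gene's probes, Zfp57 (-0.002), Nanog (-0.17) and Tead1 (0.326); that setting lets the dimmer probes count, and the cause of the differences was not tested.

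Same-numbered replicates of Dnmt3b_KO and PRDM14_DNMT3B also share a slide and a scan, with deviations that correlated at 0.461. Those of PRDM14 share only the number with the other lines, at 0.301 with Dnmt3b_KO and 0.259 with PRDM14_DNMT3B. With the replicate number as a block, 10526 genes were called, 6231 higher and 4295 lower, with 1758 and 1685 over 2-fold, and 8863 of the 9055 calls were kept. The block moved the lower count of the primordial germ cell list from 3 to 5, of the LIF list from 3 to 5 and of the one-carbon list from 3 to 5, and the higher count of the H3K9 list from 8 to 13, and the lower count of the naive list from 1 to 3. Without a filter on dim probes, the cholesterol list had 9 lower, the Polycomb, H3K9, primitive endoderm, p53, core and demethylation lists 5, 5, 2, 3, 3 and 4 higher, and the Hox list 7 lower. Quantile normalization left the demethylation list with 5 higher, and the slide block left the primitive endoderm list with 3. With 2 arrays a group the spread is poorly known, and differences of dim probes rest on signals near background.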
